A study of Mus musculus with 9 samples.

Results

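The vessel-wall cluster miR-143 and miR-145 was described by its 4 mature miRNAs, mmu-miR-143-3p, mmu-miR-143-5p, mmu-miR-145a-5p and mmu-miR-145a-3p (mmu for mouse, left out below), which are both arms of both hairpins. They were taken by name from the 1966 mature miRNAs of the deposited table of raw counts, in which all 4 had reads in all 9 libraries. The related entry miR-145b was listed at 0 in every library. In GRCm39 with the GENCODE mouse annotation, Mir143 lies on the minus strand of chromosome 18 from 61782267 to 61782329, and Mir145a on the same strand from 61780896 to 61780965, with 1301 bases between them. Mir143 overlaps the 3′ end of Carmn, a long non-coding RNA gene of the same strand (61782325 to 61799611), by 5 bases, and no other annotated exon overlaps either hairpin.

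miR-143 and miR-145 are made from 1 primary transcript that is most abundant in smooth muscle cells of vessel walls and in pericytes, and is also found in fibroblasts. There the pair supports the contractile state of smooth muscle, and transcription of the cluster depends on serum response factor and myocardin. In a whole muscle these cells surround arterioles and capillaries among striated fibres. A hairpin gives a 5p and a 3p strand, of which one is usually kept as the guide and the other is degraded.

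Small RNA of the quadriceps was sequenced from 9 mice aged 90 days by the labels, with 1 library per mouse and 3 mice in each of 3 groups. WT mice were C57BL/6J with Mbnl1+/+ and Mbnl2+/+. Mbnl1KO mice were C57BL/6J with Mbnl1{delta}E3/{delta}E3 and Mbnl2+/+. Mbnl2KO mice are labelled B6.C-Tg(CMV-cre)1Cgn/J with Mbnl1+/+ and Mbnl2{delta}E2/{delta}E2, {delta}E2/{delta}E3 or {delta}E2/{delta}E4 in replicates 1, 2 and 3. The paper names a single Mbnl2 genotype, dE2/dE2, so the labels and the paper differ for replicates 2 and 3. The mice were analysed as 1 group. The labels of Mbnl1KO name no Cre transgene. CMV-cre, in the strain name of Mbnl2KO, is a Cre transgene active in all tissues, so that the Mbnl2 deletion is not restricted to muscle fibres. The effects of the Mbnl2 deletion and of this strain cannot be told apart in these libraries. The question of the comparisons was which miRNAs depend on MBNL1 or MBNL2, proteins that regulate splicing and other steps of RNA processing.

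Library totals lay between 4761271 and 6277018 reads. The striated muscle miRNA miR-1a-3p took 61.4% to 73.7% of them. The endothelial markers miR-126a-3p and miR-126a-5p were listed at 0 in all 9 libraries, so endothelial content was not measured by its defining miRNA. The blood cell marker miR-142a-3p and the striated muscle marker miR-486a-5p were also listed at 0 in all 9. The paper names miR-486 among the most deregulated miRNAs of its Mbnl1KO mice, and the reason for these zeros was not tested. In bulk tissue, fewer cells of a type and less RNA per cell cannot be told apart. Levels are given as CPM, the reads of a miRNA relative to all reads of its library, after TMM scaling over the 9 libraries, which assumes that most miRNAs are equal between libraries.

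miR-143-3p was the dominant strand of the cluster, and one of the abundant miRNAs of the muscle. In WT it had 4124, 3647 and 3815 CPM in replicates 1 to 3, which placed it at rank 15 of all miRNAs by mean level. In Mbnl1KO it had 3278, 5794 and 5599 CPM, and in Mbnl2KO 5065, 5220 and 5870 CPM. All 3 Mbnl2KO libraries lay above all 3 WT libraries, whereas replicate 1 of Mbnl1KO lay below every other library and the other 2 Mbnl1KO libraries lay above WT. WT averaged 3862 ± 242 CPM, Mbnl1KO 4890 ± 1400 CPM and Mbnl2KO 5385 ± 427 CPM (SD, n = 3 mice each). The order of the means was thus WT, Mbnl1KO, Mbnl2KO, of which Mbnl1KO overlapped both neighbours.

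miR-145a-5p, the guide strand of the second hairpin, was the next in abundance. It had 1170, 1242 and 1500 CPM in WT, 1447, 1535 and 1629 CPM in Mbnl1KO, and 1442, 1239 and 1345 CPM in Mbnl2KO. All Mbnl2KO values lay within the WT range, and 2 of the 3 Mbnl1KO libraries lay above every WT library. WT averaged 1304 ± 174 CPM, Mbnl1KO 1537 ± 90.9 CPM and Mbnl2KO 1342 ± 101 CPM (SD, n = 3 mice each). Its mean rank in WT was 31.

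The passenger strands were lower by very different factors. miR-145a-3p had 166, 171 and 194 CPM in WT, 179, 210 and 192 CPM in Mbnl1KO, and 223, 191 and 247 CPM in Mbnl2KO. Of the Mbnl2KO libraries, replicates 1 and 3 lay above every library of the other groups, and replicate 2 lay within the WT range. miR-143-5p was rare, with 32, 39 and 41 reads in WT, 43, 47 and 39 reads in Mbnl1KO, and 42, 33 and 37 reads in Mbnl2KO. These counts correspond to 5.42 to 8.89 CPM and overlap between all groups. The exact Poisson 95% interval of the lowest count, 32, runs from 21.9 to 45.2, which covers all the other counts but the highest, 47, and stands for counting error only.

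**Figure D1:**
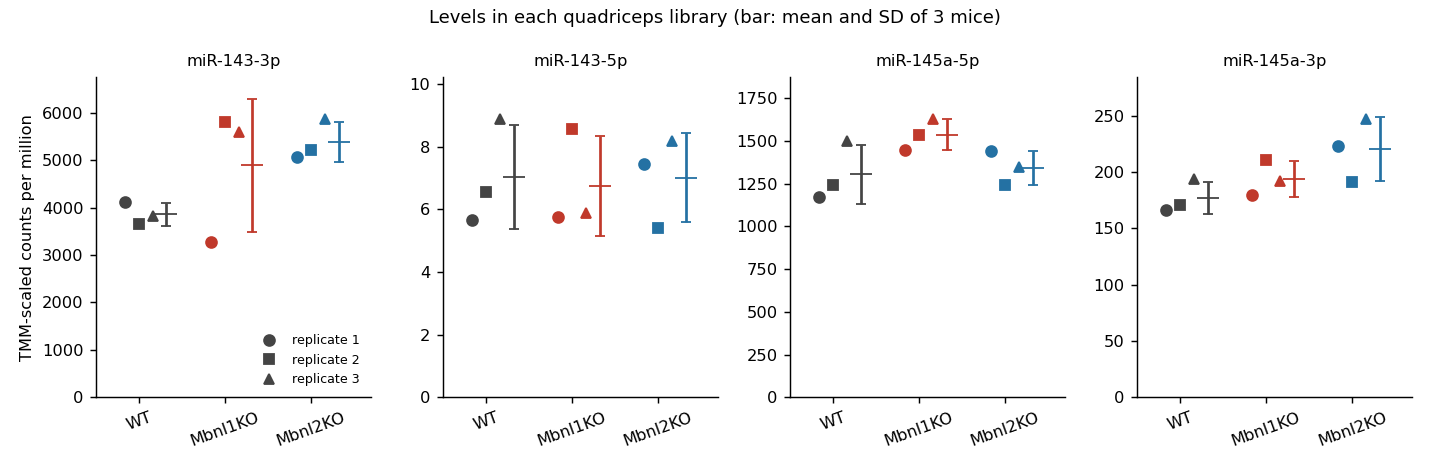
Levels of the 4 miRNAs in TMM-scaled CPM (vertical axes from 0, 1 panel per miRNA) in the WT, Mbnl1KO and Mbnl2KO libraries. Symbols mark the replicate and bars the mean and SD of 3 mice. For miR-143-3p the Mbnl2KO libraries (5065 to 5870) sit above the WT libraries (3647 to 4124), and Mbnl1KO replicate 1 sits at 3278.

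For the more abundant strands the spread between mice was wider than counting error. The coefficient of variation of miR-143-3p was 6.26% in WT, 7.92% in Mbnl2KO and 28.6% in Mbnl1KO, where counting alone would give 0.567% to 0.692%. For miR-145a-5p it was between 5.91% and 13.3%, and for miR-145a-3p between 8.07% and 12.9%. For miR-143-5p it was between 20.3% and 23.7%, against 15.2% to 16.4% from counting. The spread of miR-143-3p in Mbnl1KO includes that of the TMM factors.

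In the comparison of Mbnl2KO and WT, miR-143-3p was the 1 miRNA of the cluster that passed the threshold. It was higher in Mbnl2KO by a log2 fold change of 0.48 (standard error 0.119, 95% interval 0.23 to 0.72, Benjamini-Hochberg adjusted p = 0.0169, quasi-likelihood test of edgeR). Of the 293 miRNAs tested, 17 (5.80%) passed this threshold of 0.05, and 10 (3.41%) passed it with higher and 7 (2.39%) with lower counts in Mbnl2KO. Non-overlapping groups, as miR-143-3p had, were found for 73 miRNAs (24.9%). Of these 17 miRNAs miR-143-3p had the smallest absolute fold change, and the median over all tested miRNAs was 0.02.

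The other strands did not pass the test in Mbnl2KO. For miR-145a-3p the estimate was 0.32 (95% interval 0.02 to 0.61) with an unadjusted p of 0.0358 and an adjusted p of 0.242 (edgeR). miR-145a-5p had 0.04 (95% interval −0.22 to 0.30, adjusted p = 0.905). miR-143-5p had −0.00 (95% interval −0.60 to 0.59, adjusted p = 0.996), an interval that holds the estimate for its sister strand.

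The call for miR-143-3p in Mbnl2KO depended on single libraries. Without WT replicate 2 its adjusted p was 0.0856, without Mbnl2KO replicate 1 it was 0.0723 and without Mbnl2KO replicate 3 it was 0.0945 (edgeR), while the fold change stayed between 0.40 and 0.52 across the 6 fits with 1 mouse removed. When all 9 libraries shared 1 estimate of the spread, in which the wide Mbnl1KO values take part, miR-143-3p was estimated at 0.45, with an adjusted p of 0.145 (edgeR).

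In the comparison of Mbnl1KO and WT, none of the 4 miRNAs passed the threshold, whereas 105 of 317 tested miRNAs (33.1%) did, 60 of them higher (18.9%). By unadjusted p, too, 0 of the 4 were under 0.05 in edgeR's quasi-likelihood test, and DESeq2's Wald test called 0 of the 4. Over all tested miRNAs, 134 of 317 had an unadjusted p under 0.05 in edgeR, and DESeq2 called 90 of 317. The log2 estimate for miR-143-3p was 0.27 (standard error 0.168, 95% interval −0.07 to 0.61, adjusted p = 0.218). miR-145a-5p had 0.17 (95% interval −0.11 to 0.46, adjusted p = 0.362). The passenger strands had 0.06 for miR-145a-3p (95% interval −0.24 to 0.37, and 0.36 on the scale of library totals) and −0.13 for miR-143-5p (95% interval −0.74 to 0.49). Non-overlapping groups were found for 135 of the tested miRNAs (42.6%) and for none of these 4.

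Replicate 1 of Mbnl1KO decided the value of miR-143-3p. Without it the log2 fold change was 0.50 with an adjusted p of 0.0077 (edgeR), and with it but without replicate 2 it was 0.14. This library also had the highest TMM factor of the 9 (1.265) and the lowest share of miR-1a-3p (61.4%), and the part of these in its low level was not tested. On the scale of library totals alone it had 4146 CPM of miR-143-3p, above the 3530 to 3792 CPM of the WT libraries. On that scale the Mbnl1KO change of miR-143-3p was 0.55 (adjusted p = 0.0081) and that of miR-145a-5p was 0.46 (adjusted p = 0.0349), both past the threshold in edgeR. The same scaling moved the median of all tested miRNAs from −0.01 to 0.30, and the share of higher miRNAs among those called from 57.1% to 90.1%.

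**Figure D2:**
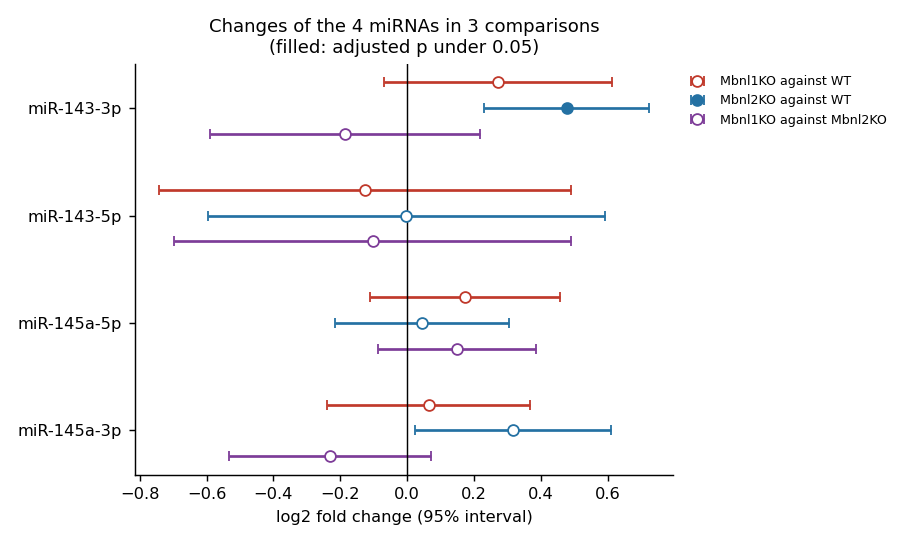
Log2 fold changes (horizontal axis) of the 4 miRNAs with 95% intervals in the 3 comparisons of groups, with filled points where the adjusted p was under 0.05. The filled point is miR-143-3p in Mbnl2KO against WT (0.48), and the intervals of miR-143-5p are the widest.

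**Figure D3:**
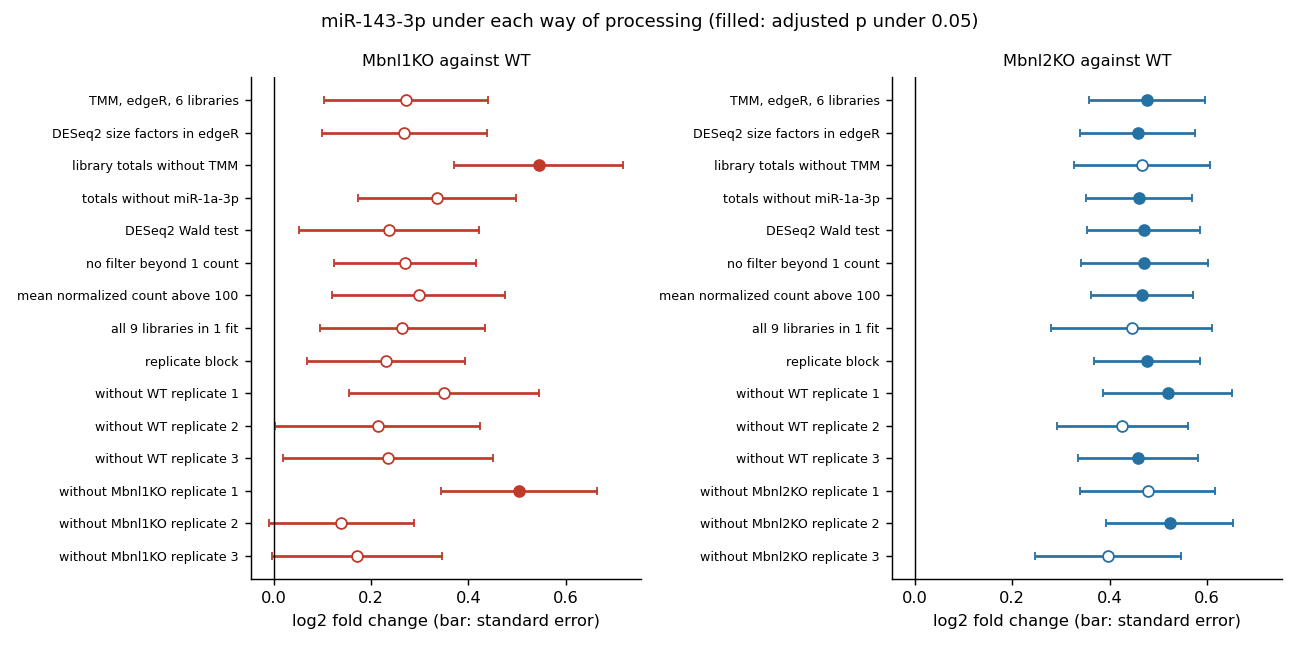
Log2 fold change of miR-143-3p with its standard error (horizontal axes) under each way of processing (rows), in Mbnl1KO and in Mbnl2KO against WT, filled where the adjusted p was under 0.05. In Mbnl2KO the values lie between 0.40 and 0.52, and in Mbnl1KO between 0.14 and 0.55.

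In the direct comparison of the knockouts, which leaves out the WT libraries, 83 of 309 tested miRNAs (26.9%) differed and 47 (15.2%) were higher in Mbnl1KO. None of the 4 miRNAs of the cluster was among them in edgeR, by unadjusted p under 0.05 either, and DESeq2 called none. Of all 309 tested miRNAs, 121 had an unadjusted p under 0.05 in edgeR, and DESeq2 called 83. miR-143-3p had a log2 difference of −0.19 (Mbnl1KO minus Mbnl2KO, 95% interval −0.59 to 0.22, adjusted p = 0.450), so the higher level found in Mbnl2KO was not shown to be particular to that knockout. miR-145a-5p had 0.15 (95% interval −0.09 to 0.39) and miR-145a-3p −0.23 (95% interval −0.53 to 0.07). miR-145a-5p was higher in every Mbnl1KO than in every Mbnl2KO library, a separation that 142 of the tested miRNAs (46.0%) had.

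Ratios of 2 counts within a library do not depend on how libraries are scaled, and were compared with two-sided exact permutation tests. With 3 mice against 3, these cannot give a p below 0.1, and 12 such tests were run, of which none had an adjusted p under 0.4. Levels of different miRNAs are also affected by ligation during library preparation, so the size of a ratio is less secure than its change between groups.

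Both hairpins belong to 1 transcript, and the ratio of their guide strands was read first. miR-143-3p had 3.52, 2.94 and 2.54 times the reads of miR-145a-5p in WT, 2.26, 3.78 and 3.44 times in Mbnl1KO, and 3.51, 4.21 and 4.36 times in Mbnl2KO. The highest WT value lies just above the lowest Mbnl2KO value, and the Mbnl1KO values span most of the range of both. The log2 ratio was 0.43 higher in Mbnl2KO than in WT (standard error 0.167, exact permutation p = 0.2, adjusted p = 0.4). It was 0.05 higher in Mbnl1KO than in WT (standard error 0.264, exact permutation p = 0.9).

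The hairpins differed in how unequal their arms were. In miR-145a, the 5p strand had 7.03, 7.26 and 7.75 times the reads of the 3p strand in WT, 8.07, 7.30 and 8.49 times in Mbnl1KO, and 6.46, 6.50 and 5.44 times in Mbnl2KO. All 3 Mbnl2KO libraries thus lay below all 6 others. The passenger strand miR-145a-3p made up between 11.4% and 12.5% of the reads of its hairpin in WT, between 10.5% and 12.1% in Mbnl1KO and between 13.3% and 15.5% in Mbnl2KO. The log2 arm ratio was −0.26 in Mbnl2KO against WT (standard error 0.0935) and 0.38 in Mbnl1KO against Mbnl2KO (standard error 0.106). Both had an exact permutation p of 0.1, the smallest that the design allows, and an adjusted p of 0.4. Leaving out any 1 library kept the sign of both, and the same Mbnl2KO libraries enter both. In Mbnl1KO against WT the log2 arm ratio was 0.11 (standard error 0.0766, exact permutation p = 0.2, adjusted p = 0.4), and these groups overlapped.

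In miR-143 the imbalance was far larger, with the 3p strand at 429 to 950 times the 5p strand in WT and Mbnl1KO and at 679 to 963 times in Mbnl2KO. The miR-143-5p share of its hairpin was between 0.104% (exact binomial 95% interval 0.0714% to 0.146%, Mbnl2KO replicate 2) and 0.233% (0.167% to 0.315%, WT replicate 3). These extreme intervals do not overlap, but the groups do. The log2 arm ratio was 0.48 higher in Mbnl2KO than in WT (standard error 0.268, exact permutation p = 0.3) and 0.36 higher in Mbnl1KO than in WT (standard error 0.308, exact permutation p = 0.4).

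**Figure D4:**
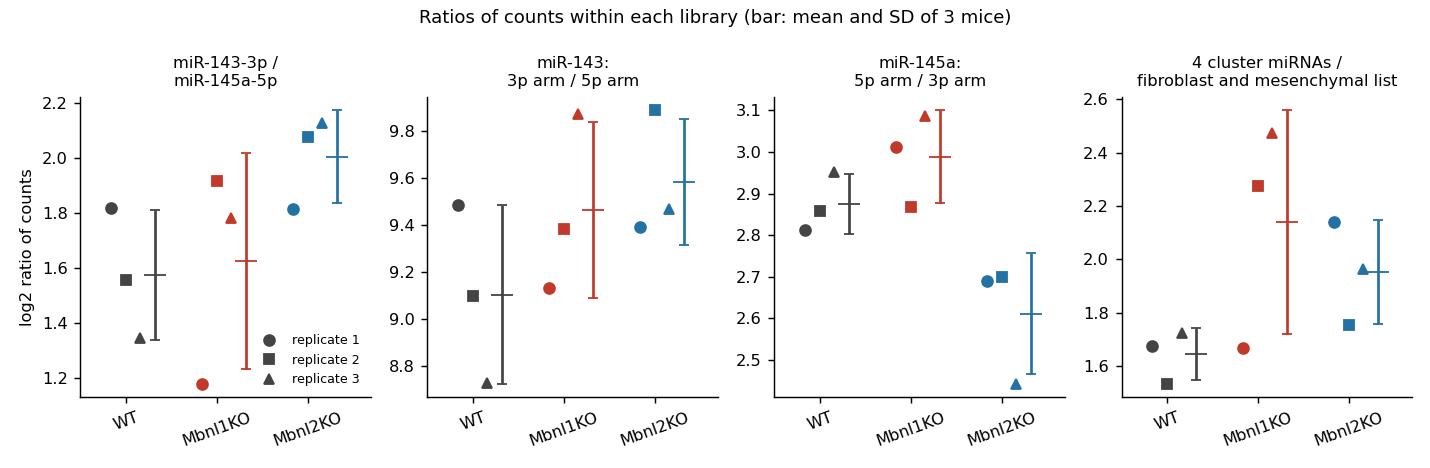
Log2 ratios of counts within each library (vertical axes, which do not start at 0) for the guide strands, for the arms of each hairpin, and for the 4 cluster miRNAs over the summed fibroblast and mesenchymal list. Symbols mark replicates and bars the mean and SD of 3 mice. The 3 Mbnl2KO libraries have the lowest arm ratios of miR-145a, 5.44 to 6.50 on the linear scale.

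Correlations between the strands of the cluster were computed for all 6 pairs. Over the 9 libraries, Pearson's r of log2 CPM between miR-143-3p and miR-145a-5p was 0.26 (exact permutation p = 0.484) and Spearman's rho was 0.20 (p = 0.613, exact permutation). Without the 2 libraries farthest from the median of miR-143-3p, r was 0.29. Of the 6 pairs, the r over all libraries was highest, at 0.71, between miR-143-3p and miR-145a-3p (exact permutation p = 0.0349, adjusted over the 6 pairs 0.202; rho 0.67, exact permutation p = 0.0589, adjusted 0.177), and without the 2 farthest libraries it was 0.62. Between the passenger strands miR-143-5p and miR-145a-3p, r was 0.64 (exact permutation p = 0.0672, adjusted 0.202; rho 0.68, exact permutation p = 0.0503, adjusted 0.177) and 0.81 without the 2 farthest libraries. Between miR-145a-5p and miR-145a-3p, the arms of 1 hairpin, r was 0.37 (exact permutation p = 0.321; rho 0.45, exact permutation p = 0.230) and 0.07 without the 2 farthest libraries. Between the arms of miR-143, r was 0.25 (exact permutation p = 0.507; rho 0.23, exact permutation p = 0.552) and 0.00 without the 2 farthest libraries. Between miR-143-5p and miR-145a-5p, r was 0.41 (exact permutation p = 0.257; rho 0.55, exact permutation p = 0.133) and 0.14 without the 2 farthest libraries. No pair passed the threshold after adjustment.

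Within groups, as deviations from the group mean, r was 0.22 for the guide strands, 0.34 for the arms of miR-143 and 0.67 for the arms of miR-145a. For miR-143-3p and miR-145a-3p it was 0.46, below the 0.71 over all libraries, which includes the differences between groups. It was 0.69 for miR-143-5p and miR-145a-5p and 0.94 for the passenger strands miR-143-5p and miR-145a-3p, and all strands of a mouse share its library scaling. These values are given as a description.

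The miRNAs whose levels were most like each strand over the 9 libraries were taken by Pearson's r from 310 miRNAs. All miRNAs of a library share its scaling factor, and no test is given. For miR-143-3p they were miR-3084-3p (0.72), miR-222-3p (0.69), miR-10b-3p (0.69), miR-30b-3p (0.67) and miR-3535 (0.66). For miR-145a-5p the values were higher, with miR-29b-3p (0.89), miR-324-5p (0.87), miR-15a-5p (0.86), miR-322-5p (0.84) and miR-185-5p (0.79). miR-145a-3p was most like miR-1839-5p (0.90), miR-10b-5p (0.75), miR-1843b-5p (0.74), miR-10b-3p (0.74) and miR-376c-3p (0.69). miR-143-5p was most like let-7i-5p (0.78), miR-451a (0.76), miR-10b-3p (0.71), miR-29a-3p (0.69) and miR-1839-5p (0.69). miR-10b-3p was among the 5 of every strand but miR-145a-5p.

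In the order of WT levels, miR-143-3p stood between let-7c-5p (4779 ± 881, SD, n = 3) and miR-125a-5p (3680 ± 436, SD, n = 3). miR-145a-5p stood between miR-99a-5p (1352 ± 147, SD, n = 3) and miR-100-5p (1219 ± 69.0, SD, n = 3). miR-145a-3p stood between miR-335-5p and miR-195a-5p, and miR-143-5p, at rank 209, between miR-98-3p and miR-485-5p. In each case the distance to the nearest neighbour was smaller than the SD between WT mice, so the order of these pairs is not resolved. let-7c-5p, the next above miR-143-3p, lay farther from it than either SD.

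Other miRNAs of vessel wall and connective tissue cells were read from lists of markers. The fibroblast and mesenchymal list held 8 miRNAs, both arms of miR-199a, miR-199b, miR-214 and miR-152, all with reads. In Mbnl2KO against WT, 7 were tested and 0 passed the threshold (edgeR, 0 by unadjusted p under 0.05 too, and 0 in DESeq2). Of all 293 tested miRNAs, 17 (5.80%) passed it in edgeR, and 0 of 7 is near that share. By unadjusted p, 53 of the 293 were under 0.05. The median log2 fold change of the list was 0.05, beside 0.18 for the 4 cluster miRNAs and 0.02 for all tested miRNAs. In Mbnl1KO against WT, 8 were tested, 0 were higher and 2 lower, where 14.2% of all tested miRNAs were lower. The 2 were miR-199a-3p (−0.43, adjusted p = 0.0139) and miR-199b-3p (−0.43, adjusted p = 0.0206). These 2 have the same mature sequence and their counts cannot be told apart. Neither passed it with library totals as the scale, with totals without miR-1a-3p, without WT replicate 1 or without Mbnl1KO replicate 3, and miR-199b-3p did not without the filter on low counts. Against Mbnl2KO, 3 of 8 were lower in Mbnl1KO, the same 2, which are 1 sequence, and miR-199b-5p (−0.65), where 11.7% of all tested miRNAs were lower. The median was −0.26 beside 0.07 for all tested miRNAs, but 0 of 8 were called with library totals, with totals without miR-1a-3p, without Mbnl1KO replicate 3 or without Mbnl2KO replicate 2, and 1 of 8 without Mbnl2KO replicate 3 or without the filter.

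The summed level of this list was between 1671 and 1748 CPM in WT, between 1338 and 1558 CPM in Mbnl1KO and between 1529 and 1975 CPM in Mbnl2KO. The 4 cluster miRNAs summed to between 5067 and 5517 CPM in WT, to between 4910 and 7547 CPM in Mbnl1KO and to between 6656 and 7470 CPM in Mbnl2KO. Their ratio to the list was 3.20, 2.90 and 3.30 in WT, 3.18, 4.84 and 5.55 in Mbnl1KO, and 4.41, 3.37 and 3.90 in Mbnl2KO. Every Mbnl2KO library was thus above every WT library, and 2 of 3 Mbnl1KO libraries were. miR-199a-3p and miR-199b-3p, which are 1 sequence, held 52.2% to 64.1% of the list's reads, so the sum may count the same reads more than once. The log2 ratio was 0.31 higher in Mbnl2KO than in WT (standard error 0.125, exact permutation p = 0.1, adjusted p = 0.4) and 0.49 higher in Mbnl1KO than in WT (standard error 0.248, exact permutation p = 0.3, adjusted p = 0.45). With miR-199b-3p left out of the list, an alternative chosen after seeing the data, the Mbnl2KO difference was 0.30 (standard error 0.132, exact permutation p = 0.2) and its libraries overlapped those of WT, and the Mbnl1KO difference was 0.46 (standard error 0.243, exact permutation p = 0.3).

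Of the 8 miRNAs of the endothelial list, 4 were listed at 0, and 3 arms of miR-221 and miR-222 were tested. None passed the threshold against WT in either knockout by edgeR or DESeq2, where edgeR's unadjusted p was under 0.05 for 0 of 3 (Mbnl1KO) or 2 of 3 (Mbnl2KO). Over all tested miRNAs 33.1% and 5.80% were called, and 134 of 317 and 53 of 293 had an unadjusted p under 0.05. With library totals as the scale, miR-221-3p passed the adjusted threshold in Mbnl1KO. miR-221-5p was lower in Mbnl1KO than in Mbnl2KO (−0.82, adjusted p = 0.0449), a call that was lost in DESeq2, with library totals, with totals without miR-1a-3p, without the filter, with the replicate block, and without Mbnl1KO replicate 1 or 3 or Mbnl2KO replicate 1 or 2. At a mean above 100 it was not tested. In DESeq2 miR-222-3p was called in its place (−0.44, adjusted p = 0.0496), and without Mbnl1KO replicate 2 both were called. In Mbnl2KO against WT their median was 0.30, with 0.77 for miR-221-5p (adjusted p = 0.126), 0.30 for miR-222-3p (adjusted p = 0.264) and 0.12 for miR-221-3p. The summed list was between 177.4 and 191.7 CPM in WT, between 191.9 and 230.6 CPM in Mbnl1KO and between 195.5 and 226.4 CPM in Mbnl2KO, so both knockouts lay above WT, Mbnl1KO by a narrow margin, and the defining markers miR-126a-3p and miR-126a-5p were at 0. The part of endothelial cells in the level of miR-143-3p was not tested.

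Of 10 blood and immune cell miRNAs, 8 were tested, and 0 passed the threshold in Mbnl2KO against WT (edgeR, and 0 in DESeq2). Over all 293 tested miRNAs, 17 (5.80%) passed it in edgeR, and 0 of 8 is near that share. By edgeR's unadjusted p, miR-150-5p (0.38) and miR-155-5p (−0.42) were under 0.05, where 53 of all 293 were. In Mbnl1KO against WT, miR-155-5p was higher (0.86), and miR-223-3p (−0.87), miR-142a-5p (−0.84) and miR-146a-5p (−0.49) were lower, 4 of 8 where 33.1% of all tested miRNAs were called. Of these, miR-155-5p and miR-223-3p were called under every alternative run. miR-142a-5p lost its call with library totals, with totals without miR-1a-3p, in DESeq2, without the filter, with the replicate block, and without WT replicate 1 or 2 or Mbnl1KO replicate 1 or 3. miR-146a-5p lost it with library totals and without WT replicate 1 or 3. Against Mbnl2KO the same 4 of 8 were called, where 26.9% of all tested miRNAs were. miR-155-5p was higher in Mbnl1KO (1.31), and miR-142a-5p (−1.19), miR-223-3p (−0.98) and miR-146a-5p (−0.46) were lower. There miR-146a-5p lost its call with library totals, with totals without miR-1a-3p, without the filter, with the replicate block, and without Mbnl1KO replicate 1 or 3 or Mbnl2KO replicate 2 or 3. The summed list was between 495 and 577 CPM in WT, between 508 and 638 CPM in Mbnl1KO and between 537 and 573 CPM in Mbnl2KO, so the groups overlapped. Of the 7 striated muscle miRNAs, 5 were tested, and 2 were called higher in Mbnl1KO and 1 in Mbnl2KO against WT. Over all tested miRNAs, 18.9% and 3.41% were called higher. miR-206-3p was higher in both knockouts (1.93 in Mbnl1KO and 0.89 in Mbnl2KO) and miR-133b-3p was higher in Mbnl1KO (0.71), a call that was lost in DESeq2 and without WT replicate 1, WT replicate 2 or Mbnl1KO replicate 1. miR-1a-3p had −0.40 in Mbnl1KO against WT with groups that did not overlap and an adjusted p of 0.0502 (edgeR), and it was called lower in 4 alternatives: a joint fit of the 9 libraries, scaling by the size factors of DESeq2, DESeq2's own test, and the fit that omits Mbnl1KO replicate 2. miR-206-3p and miR-133b-3p were also higher in Mbnl1KO than in Mbnl2KO (1.06 and 0.88), where 15.2% of all tested miRNAs were called higher. miR-133a-3p (0.03 in Mbnl1KO and −0.16 in Mbnl2KO against WT) and miR-499-5p (0.87 and −0.58) were not called in any comparison by edgeR.

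**Figure D5:**
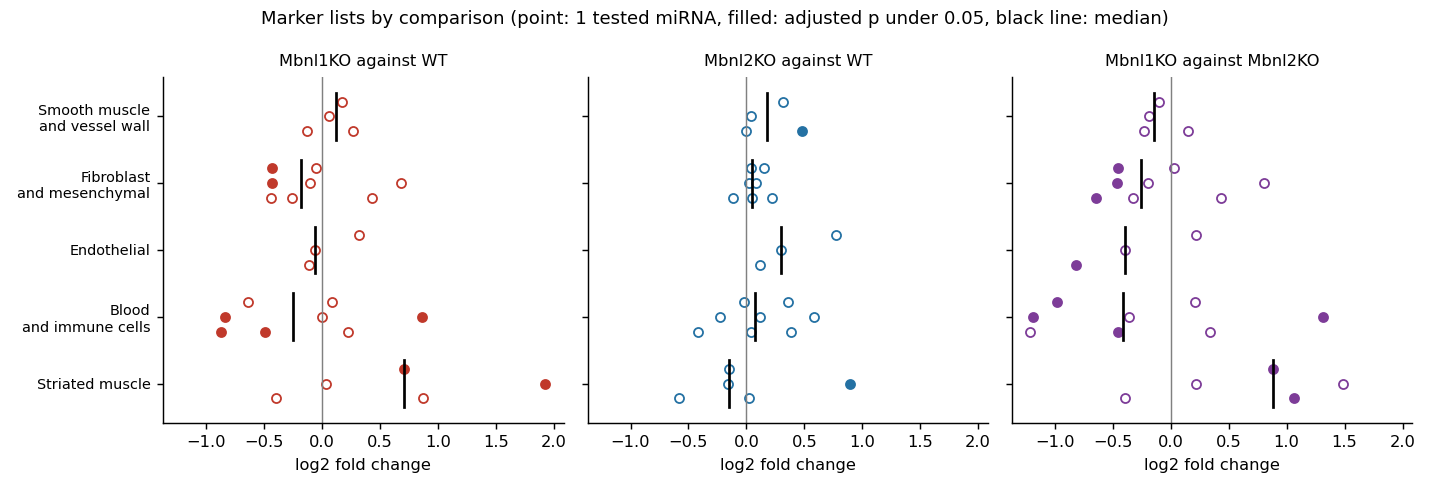
Log2 fold changes (horizontal axes) of the tested miRNAs of the 4 cluster miRNAs and of 4 other marker lists (rows) in the 3 comparisons, filled where the adjusted p was under 0.05, with the median of each list as a black line. In Mbnl2KO against WT the filled points are miR-143-3p (0.48) and miR-206-3p (0.89).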

How the data were processed

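The deposited table holds raw counts for each mature miRNA in all 9 libraries, and the authors applied no normalization to it. The paper's methods describe adapter clipping, collapsing of identical reads, alignment to miRBase precursors in sense without mismatches, and summing of reads within annotated mature miRNAs. Whether this made the deposited table is not stated in it. The labels name DESeq2 for the authors' own comparisons.

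For each comparison only the 6 libraries concerned entered a robust quasi-likelihood fit in edgeR after TMM normalization. A miRNA was tested when its normalized counts averaged over 10, with Benjamini-Hochberg adjustment over all tested miRNAs and a threshold of 0.05. Standard errors and 95% intervals were derived from the F statistic. Within-library ratios (0.5 added to each count) were compared by exact permutation. The columns were mapped to mice by their labels. R 4.3.3, edgeR 4.0.16, DESeq2 1.42.0, Python 3.11.15 and SciPy 1.17.1 were used.

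The 4 members and all lists were chosen with earlier results of these data known. Named were the members, the 5 miRNAs most like each, their neighbours in WT, and list miRNAs that passed the threshold. The alternatives were other scalings, DESeq2's Wald test, other filters, 1 fit over 9 libraries, the replicate number as a block, and each library left out. The edgeR fit was tested on simulated data with the depths of the Mbnl1KO and WT libraries, where 68% of changed miRNAs with a log2 change of size 1 and 100% of those of size 2 were recovered among 316 tested. Changes of other sizes were not simulated, and the simulated spread between mice was 1 fixed value. Recovery of smaller changes, such as those estimated for the 4 miRNAs, was therefore not tested. Read counts are not independent molecules, so counting intervals cover counting error only.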

Additional observations from a re-analysis of the deposited data

How the results depend on the processing

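For miR-143-3p in Mbnl2KO against WT the log2 fold change was positive under every alternative run, from 0.40 to 0.52, with an adjusted p between 0.00044 and 0.145. It missed the threshold in edgeR with library totals alone (0.47, adjusted p = 0.0601), with all 9 libraries in 1 fit (0.45), and without WT replicate 2, Mbnl2KO replicate 1 or Mbnl2KO replicate 3 (range over the 6 fits with a library left out, 0.40 to 0.52), and passed it in DESeq2's Wald test (adjusted p = 0.0019). In Mbnl1KO against WT it passed the threshold with library totals alone (0.55) and without Mbnl1KO replicate 1 (range 0.14 to 0.50), and miR-145a-5p passed it with library totals alone (0.46).

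Signs turned only for changes that had not passed the threshold. With library totals alone the log2 fold change of miR-143-5p in Mbnl1KO against WT became 0.16, and in Mbnl1KO against Mbnl2KO those of miR-143-3p, miR-143-5p and miR-145a-3p became 0.078, 0.19 and 0.064. With 1 library left out, the range was −0.31 to 0.036 for miR-143-5p in Mbnl1KO against WT, −0.15 to 0.185 for miR-143-5p and −0.054 to 0.15 for miR-145a-5p in Mbnl2KO against WT, and −0.37 to 0.042 for miR-143-3p and −0.35 to 0.0095 for miR-143-5p in Mbnl1KO against Mbnl2KO. The causes of these turns were not tested. miR-143-5p was too rare to be tested at a mean above 100, so that setting gave it no value. Among the within-library log2 ratios, which had no call to lose, those of the miR-143 arms ranged from 0.16 (without Mbnl1KO replicate 3) to 0.55 in Mbnl1KO and from 0.29 (without WT replicate 3) to 0.67 in Mbnl2KO against WT with 1 library left out, and from −0.32 to 0.046 between the knockouts. The guide strand ratio ranged from −0.093 to 0.28 in Mbnl1KO and from 0.32 to 0.55 in Mbnl2KO against WT, and the miR-145a arm ratio from −0.31 to −0.18 in Mbnl2KO against WT. The ratio of the cluster to the fibroblast list ranged from 0.33 (without Mbnl1KO replicate 3) to 0.73 in Mbnl1KO and from 0.21 to 0.41 in Mbnl2KO against WT. miR-145a-3p in Mbnl1KO against WT ranged from 0.012 to 0.13 with 1 library left out and was 0.36 with library totals, without passing the threshold. Over all miRNAs, the number called in Mbnl2KO against WT was 7 with library totals, 9 at a mean above 100, and 6 to 25 with 1 library left out.

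The replicate numbers of the labels were not taken to pair the mice, since same-numbered libraries of different groups deviated together with r between −0.15 and 0.14 over 310 miRNAs. With the replicate block the log2 fold change of miR-143-3p was 0.48 in Mbnl2KO (adjusted p = 0.00044, edgeR) and 0.23 in Mbnl1KO, and the number of miRNAs called was 92 in Mbnl1KO and 21 in Mbnl2KO against WT, and 80 between the knockouts. At 32 to 47 reads per library, depth limits what can be said of miR-143-5p.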
